A study of Homo sapiens with 6 samples.

Results

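The 31 genes described here encode the machinery of cholesterol and fatty acid synthesis and its sterol-sensing regulators. They were followed in U251 cells, an established human glioma line, in 3 libraries made after knockdown of TEAD3 and 3 control libraries. Members were taken from a named list, each matched by symbol to 1 Ensembl identifier, out of 60612 identifiers in the count table. In the knockdown group TEAD3, which encodes a TEAD family transcription factor, was targeted by transient transfection, and a plasmid vector as well as an siRNA appear in the labels. The control group is described only as a normal control, so what those cells received is not given. Both groups were grown in DMEM with foetal bovine serum, which carries lipoproteins, and no sterol or lipid treatment is mentioned. Separate cultures are not stated for the replicates, so p-values describe the spread among these libraries only, and that spread may be technical. All members had between 503 and 87273 counts in every library and all 31 were among the 17723 genes tested.

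In animal cells the synthesis of cholesterol and of unsaturated fatty acids is controlled by SREBP transcription factors, which are made as membrane proteins of the endoplasmic reticulum. When membrane sterols are scarce, the escort protein SCAP carries the SREBP precursors to the Golgi, where proteases release the active factor. When sterols are plentiful, INSIG proteins hold the SCAP complex in place. SREBP-2 acts mainly on the mevalonate and sterol genes and SREBP-1 mainly on the fatty acid genes, and glioma cells are known for high use of this pathway.

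TEAD3 itself was at 4.70, 8.35 and 6.08 CPM (counts relative to library size, TMM-normalised) in knockdown replicates 1 to 3, against 14.9, 20.3 and 21.0 CPM in control replicates 1 to 3 (edgeR adjusted p = 0.0114). Libraries held 58344026 to 64808615 counts. Among 7 astroglial and glioma markers, VIM, CD44, NES and SOX2 exceeded 100 CPM in every library, while GFAP reached only 1.80 CPM and S100B 0.69 CPM. Of 4 neuronal markers, SYT1 lay between 15.5 and 18.6 CPM, STMN2 was at 0 throughout and RBFOX3 reached at most 0.123 CPM. SNAP25 lay between 3.24 and 4.73 CPM in the knockdown and between 5.23 and 7.14 CPM in controls. VIM, SOX2, SOX9, GFAP and SNAP25 were lower in every knockdown library than in every control, as 10.6% of all genes tested were. None of these markers was called by edgeR (adjusted p between 0.143 and 0.437). The oligodendrocyte marker MBP, at 0.54 CPM or less, was higher in every knockdown library, as 11.0% of all genes tested were (edgeR adjusted p = 0.549). The part of these markers in the results was not tested. Oligodendrocyte, microglial, endothelial and epithelial markers reached at most 2.20 CPM. Over all genes, the Spearman correlation of a library's deviations with transcript GC content lay between -0.0833 and 0.105 in the knockdown, against -0.364, 0.452 and -0.134 in control replicates 1 to 3.

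No gene of the 31 was called different after the knockdown. A gene was called when the Benjamini-Hochberg adjusted p of edgeR's quasi-likelihood test, taken over all genes tested, was under 0.05, which 0.655% of all genes were (0.451% higher, 0.203% lower). The smallest edgeR adjusted p among the members was 0.127, for ELOVL6. At an unadjusted p under 0.05 there were 6 members lower (19.4% of the 31, against 7.43% of all genes) and 1 higher (3.23%, against 8.15%). DESeq2 called 4.92% of all genes, 2.75% higher and 2.17% lower, and among the members it called 2 lower (6.45%) and none higher. limma-voom called none of the members, and 0.446% of all genes higher and 0.231% lower. The largest fold changes were 0.764 for CYP51A1 and 1.28 for FASN. The median log2 fold change was -0.05 over the members and -0.0012 over all genes tested. Of the members, 21 (67.7%) lay below 0 and 10 above, where 50.2% and 49.8% of all genes did. HMGCS1 and STARD4, counted among the 21, were at -0.00093 and -0.0015. In the alternative fits described below, the number of members below 0 ran from 15, with the non-polyadenylated RNA covariate, to 21. It was 19 by DESeq2 and by limma-voom.

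The 95% intervals bounded most of the changes, but only relative to the spread among these libraries. If that spread is technical, they do not bound the effect across separate cultures. For 25 of the 31 genes the 95% interval of the fold change, which is not adjusted for the number of genes, lay inside a 1.5-fold change in either direction. The 6 exceptions were INSIG1, CYP51A1, ELOVL6 and FADS2 on the low side and PMVK and FASN on the high side. The most extreme bounds were 0.635 for CYP51A1 and 1.58 for FASN. A missed threshold does not show that a gene was unaltered, and changes smaller than an interval's bounds are not excluded. The interval lay away from 1 for 7 genes, the same 7 that had an unadjusted p under 0.05.

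**Figure D1:**
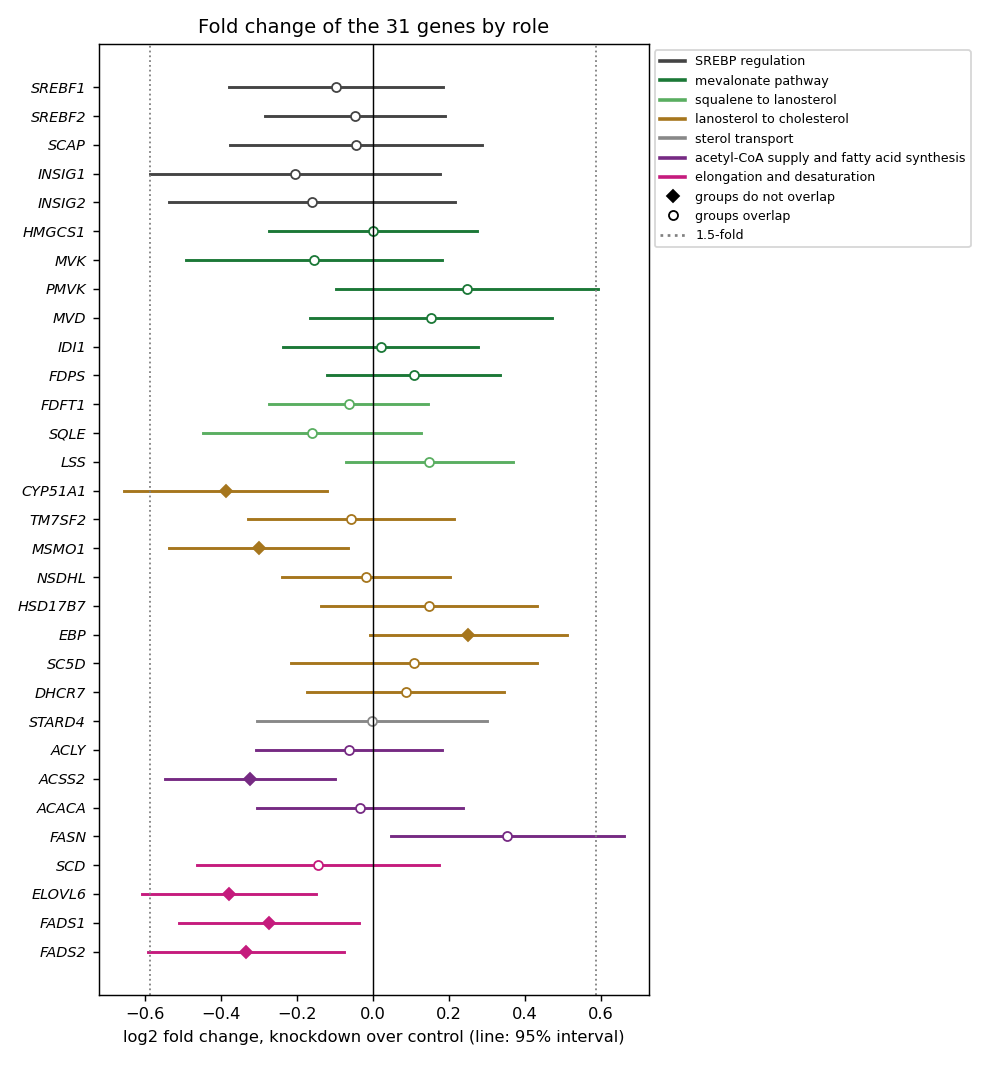
Log2 fold change, knockdown over control, of each of the 31 genes with its 95% interval, coloured by role, with dotted lines at a 1.5-fold change. Diamonds mark the 7 of 31 genes whose groups do not overlap, 6 of them below 0, where 21.6% of all genes tested had no overlap. The intervals of 25 genes lie inside the dotted lines.

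The regulators of the pathway differed by less than the spread between libraries, with groups that overlapped for all 5 and no unadjusted p under 0.05. SREBF1, the gene of SREBP-1, was at 394, 471 and 437 CPM in the knockdown, against 381, 529.5 and 481 CPM in controls. Its extremes were both controls, replicate 1 being the lowest library and replicate 2 the highest (fold 0.935, 95% interval 0.770 to 1.14, edgeR adjusted p = 0.781). SREBF2, the gene of SREBP-2, was at 154, 169.9 and 178 CPM, against 152, 187 and 179 CPM in controls. Here too the lowest and the highest library were control replicates 1 and 2 (fold 0.968, interval 0.821 to 1.14, edgeR adjusted p = 0.893). SCAP, the escort protein gene, averaged 59.9 ± 7.10 CPM in the knockdown and 61.9 ± 13.1 CPM in controls (SD, n = 3 each).

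INSIG1, itself a transcriptional target of SREBP and so a common readout of the pathway, had the widest range of the 31 genes within the controls. It was at 71.2, 70.0 and 62.2 CPM in the knockdown, against 82.0, 55.0 and 97.5 CPM in controls. Control replicate 2 was the lowest of all 6 libraries and control replicate 3 the highest, a 1.77-fold range within the controls. The fold change was 0.867 with an interval from 0.666 to 1.13 (edgeR adjusted p = 0.627). Its log2 value was -0.21 with all libraries, -0.41 without control replicate 2 and -0.02 without control replicate 3. INSIG2, the less abundant paralog, averaged 9.26 ± 1.08 CPM in the knockdown and 10.3 ± 1.65 CPM in controls (SD, n = 3 each).

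The SREBF2 gene carries a sterol regulatory element in its own promoter, and that is the sequence through which SREBP-2 is known to act on its targets. Promoter windows of the RefSeq table (build GRCh38.p14) were found for 28 of the 31 genes, in 39 windows, and the 250 bases before each start were searched on both strands. The letters TCACCCCAC, a core of that element, were in 1 member window, that of SREBF2, and in 0.362% of all 35116 windows. The looser form TCACNCCAC, which includes the first, was likewise in the SREBF2 window alone among members and in 0.883% of all windows. The letters CCAAT, bound by the SREBP partner NF-Y, were in 24 of the 39 member windows (61.5%), belonging to 20 genes, against 32.0% of all windows. GGAATG, the letters of the TEAD-binding MCAT element, was in 5 member windows (12.8%), those of PMVK, HSD17B7, EBP, STARD4 and FADS2, against 11.9% of all windows. A match is a description of the letters and no evidence of binding, and a window without one says nothing about the factor. Shown are SREBF2 for its sterol element, MSMO1 for its repeated CCAAT and HSD17B7 for a GGAATG, on the plus strand up to the base before the gene's start in GENCODE release 29, with matches on either strand in capitals (ATTGG is CCAAT on the minus strand). They lie at chr22:41832855-41833078, chr4:165327419-165327622 and chr1:162790452-162790701.
SREBF2: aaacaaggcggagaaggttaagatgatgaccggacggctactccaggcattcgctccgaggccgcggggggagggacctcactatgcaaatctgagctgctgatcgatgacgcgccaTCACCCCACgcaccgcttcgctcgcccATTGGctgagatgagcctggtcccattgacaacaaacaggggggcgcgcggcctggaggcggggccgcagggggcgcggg
MSMO1: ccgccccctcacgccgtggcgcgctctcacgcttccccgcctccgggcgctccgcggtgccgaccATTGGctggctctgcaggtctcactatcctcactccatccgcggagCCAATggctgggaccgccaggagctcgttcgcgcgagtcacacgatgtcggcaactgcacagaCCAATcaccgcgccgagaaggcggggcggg
HSD17B7: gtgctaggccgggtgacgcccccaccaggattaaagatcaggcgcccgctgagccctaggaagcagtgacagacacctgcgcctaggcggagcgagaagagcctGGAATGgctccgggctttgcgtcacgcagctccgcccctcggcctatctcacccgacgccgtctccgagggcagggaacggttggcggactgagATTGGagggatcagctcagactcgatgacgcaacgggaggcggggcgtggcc

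The mevalonate pathway, which builds isoprenoid units from acetyl-CoA, had no gene called by edgeR or DESeq2 among 6, none with an unadjusted p under 0.05, and 4 lay above 0. HMGCS1, whose enzyme condenses acetyl-CoA with acetoacetyl-CoA, was at 48.9, 43.5 and 45.7 CPM in the knockdown, against 49.9, 38.4 and 49.9 CPM in controls. The group means were nearly equal and control replicate 2 was again the lowest library (fold 0.999, interval 0.827 to 1.21, edgeR adjusted p = 0.998). IDI1, which isomerises the isoprenoid unit, averaged 66.3 ± 2.97 CPM in the knockdown and 65.4 ± 8.96 CPM in controls, and FDPS, the farnesyl diphosphate synthase gene, 168 ± 18.4 CPM and 156 ± 3.61 CPM (SD, n = 3 each). The mevalonate kinase gene MVK and the decarboxylase gene MVD had log2 fold changes of -0.16 and 0.15. PMVK, the phosphomevalonate kinase gene, was at 51.5, 34.9 and 41.1 CPM in the knockdown, against 36.2, 40.8 and 30.4 CPM in controls. Knockdown replicate 1 was its highest library, and the upper bound of its interval was 1.51 (edgeR adjusted p = 0.486).

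Of the 3 genes that lead from farnesyl diphosphate to lanosterol, none was called by either tool or had an unadjusted p under 0.05. FDFT1, the squalene synthase gene, averaged 282 ± 20.6 CPM in the knockdown and 295 ± 11.2 CPM in controls (SD, n = 3 each). SQLE, which encodes the rate-limiting squalene epoxidase, was at 38.5, 43.1 and 38.3 CPM in the knockdown, against 47.8, 36.5 and 49.6 CPM in controls. Knockdown values lay between control replicate 2, the lowest, and the other two controls (fold 0.895, edgeR adjusted p = 0.612). LSS, the lanosterol synthase gene, was at 102, 109.8 and 115 CPM, against 90.1, 102 and 103 CPM (fold 1.11, interval 0.951 to 1.29, edgeR adjusted p = 0.519).

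The 8 genes of the steps from lanosterol to cholesterol included 3 with no overlap between the groups, a pattern that 21.6% of all genes had. CYP51A1, which encodes the lanosterol demethylase, was at 63.6, 64.1 and 57.6 CPM in the knockdown, against 90.1, 67.4 and 84.8 CPM in controls. Every knockdown library was below every control, although control replicate 2 lay close to the knockdown values. Exons of CYP51A1 (chr7:92112151-92134803, minus strand, GRCh38) overlap 2 other annotated genes on the same strand and an antisense gene, and 3 pseudogenes bear its name, so its counts are less certain. The log2 fold change was -0.39 with SE 0.121 (fold 0.764, edgeR adjusted p = 0.167), and DESeq2 called it (adjusted p = 0.0460). MSMO1, whose enzyme helps remove methyl groups from the demethylated product, was at 49.2, 45.5 and 42.9 CPM, against 57.3, 51.9 and 60.2 CPM. Again all knockdown libraries were below all controls (-0.30, SE 0.107, edgeR adjusted p = 0.213). EBP, the sterol isomerase gene, went the other way: 33.1, 29.2 and 30.5 CPM in the knockdown lay just above 23.7, 28.7 and 25.6 CPM in controls (0.25, SE 0.118, edgeR adjusted p = 0.337).

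The other 5 genes of that stretch overlapped between the groups, with log2 fold changes from -0.06 for TM7SF2 to 0.15 for HSD17B7. NSDHL, a sterol dehydrogenase gene, averaged 61.2 ± 3.38 CPM in the knockdown and 62.0 ± 3.70 CPM in controls (SD, n = 3 each). DHCR7, which encodes the last reductase of one branch of the pathway, averaged 63.7 ± 5.15 CPM in the knockdown and 60.1 ± 7.40 CPM in controls (SD, n = 3 each). Summed over the 17 sterol synthesis enzymes, the level was 1183, 1158 and 1097 CPM in knockdown replicates 1 to 3, against 1149.9, 1127 and 1182 CPM in control replicates 1 to 3. The ranges of the sums overlapped, and the ratio of their means was 0.994. STARD4, a sterol transport protein gene and SREBP-2 target, had a fold change of 0.999 (interval 0.810 to 1.23).

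Of the 8 fatty acid genes, 7 lay below 0, with a median log2 fold change of -0.21, and of the 17 sterol enzymes 8 did, with a median of 0.02. In the alternative fits described below, the median ran from -0.31 to -0.13 for the fatty acid genes and from -0.013 to 0.074 for the sterol enzymes. SCD, ACACA and ACLY lay above 0 in some of those fits. The difference between these sets was not tested. The summed level of the fatty acid genes was 1875, 2233 and 2015 CPM in the knockdown, against 2078, 1950.5 and 2474 CPM in controls. The lowest sum was that of knockdown replicate 1 and the highest that of control replicate 3, and the groups overlapped (ratio of means 0.942). SCD was the largest contributor to it.

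Of the genes for acetyl-CoA supply and chain synthesis, ACSS2 was lower in every knockdown library and FASN had the largest positive fold change of the 31. ACSS2, which makes acetyl-CoA from acetate, was at 41.4, 46.1 and 44.5 CPM in the knockdown, against 51.9, 55.6 and 57.8 CPM in controls. The gap between the groups was about as wide as the spread inside each (-0.32, SE 0.102, edgeR adjusted p = 0.167). FASN, the fatty acid synthase gene, was at 278, 353 and 336 CPM, against 202, 279 and 276 CPM. Its groups overlapped at knockdown replicate 1 and control replicate 2, and control replicate 1 was far below the other libraries (0.35, SE 0.139, edgeR adjusted p = 0.256). Without control replicate 1 the log2 fold change of FASN was 0.22. ACLY, which makes acetyl-CoA from citrate, had a fold change of 0.957 (interval 0.807 to 1.13), and ACACA, the carboxylase of the committed step, of 0.977 (0.810 to 1.18).

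All 4 elongation and desaturation genes lay below 0, and in 3 of them every knockdown library was below every control, where 10.6% of all genes were. ELOVL6 (chr4:110045846-110199199, minus strand, GRCh38), the elongase of saturated and monounsaturated chains, was at 43.1, 44.4 and 43.3 CPM in the knockdown, against 58.7, 51.1 and 60.3 CPM in controls. The 3 knockdown values were nearly identical and all sat below the lowest control (-0.38, SE 0.104, edgeR adjusted p = 0.127), and DESeq2 called this gene (adjusted p = 0.0233). FADS2 and FADS1, the neighbouring genes of the delta-6 and delta-5 desaturases on chromosome 11, had similar values. FADS2 was at 81.3, 100.8 and 87.9 CPM, against 100.9, 114 and 126 CPM, with knockdown replicate 2 and control replicate 1 nearly touching (-0.33, SE 0.117, edgeR adjusted p = 0.209). FADS1 was at 89.7, 102 and 92.4 CPM, against 109, 106 and 128 CPM in controls, with every knockdown library below (-0.27, SE 0.108, edgeR adjusted p = 0.256). Exons of these desaturase genes overlap on opposite strands, and those of FADS2 also overlap FEN1 on the same strand, so their counts are uncertain where reads were split. FEN1, a DNA replication gene, was itself at 86.0 CPM on average in the knockdown and 107 CPM in controls (-0.32, edgeR adjusted p = 0.186).

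SCD, the stearoyl-CoA desaturase gene, was the most abundant member at 1021, 1208 and 1039.7 CPM in the knockdown, against 1216, 944 and 1453 CPM in controls. As with INSIG1, the controls held both the lowest and the highest library, replicates 2 and 3 (fold 0.905, interval 0.725 to 1.13, edgeR adjusted p = 0.693). Per kilobase of annotated exon, its level was 203 CPM in the knockdown and 225 CPM in controls. SREBF1, ACLY and FDFT1 followed at 54.0, 54.4 and 54.3 CPM per kilobase in the knockdown and 57.7, 56.8 and 56.7 CPM per kilobase in controls, levels too close to order. FDPS came next in both groups, at 45.3 CPM per kilobase in the knockdown and 42.0 in controls. INSIG2 and MVK were the least abundant, at 2.34 and 2.07 CPM per kilobase in the knockdown and 2.62 and 2.30 in controls. The order of levels per kilobase depends on the length used. All annotated exons together were 8030 bases for SREBF1 and 5202 for FDFT1, and the longest transcripts were 4653 and 2660 bases.

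**Figure D2:**
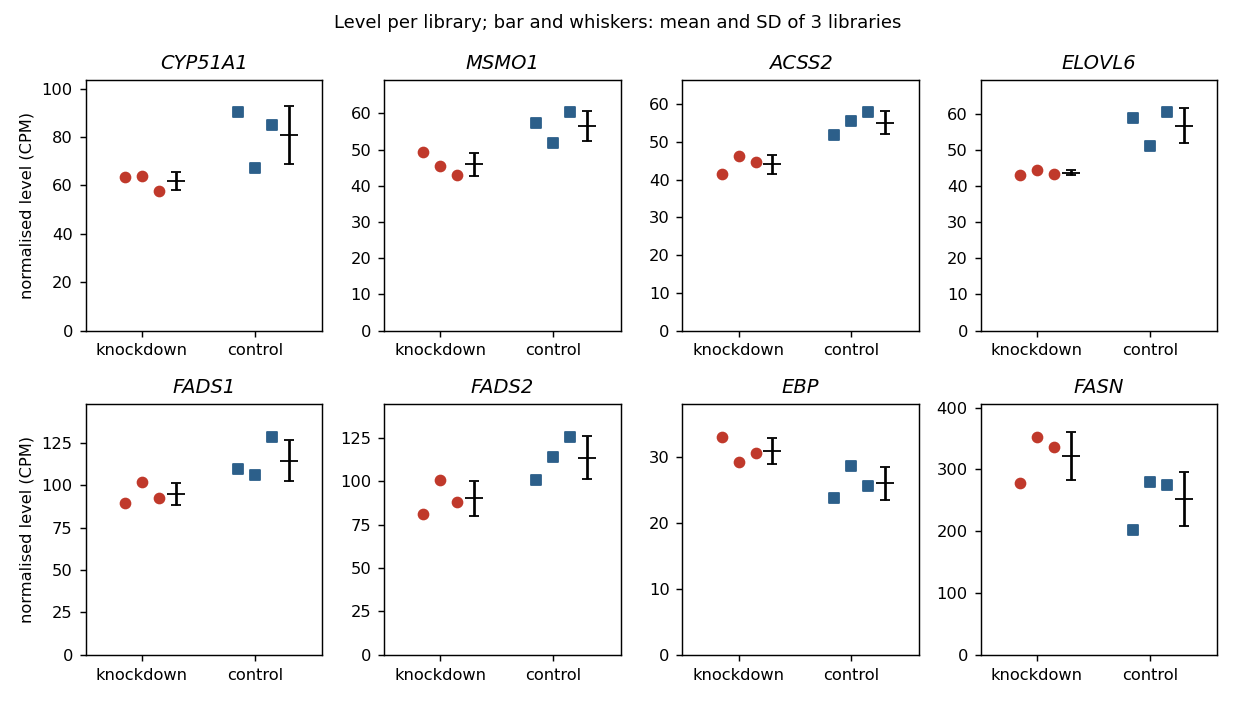
Normalised level in CPM of 8 genes in each library, with knockdown replicates 1 to 3 as circles and control replicates 1 to 3 as squares, left to right, and the mean and SD of each group beside them. All knockdown points of CYP51A1, MSMO1, ACSS2, ELOVL6, FADS1 and FADS2 lie below all control points, those of EBP lie above, and those of FASN overlap at 278 and 279 CPM.

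Of the 31 genes, 6 were lower and 1 was higher in all knockdown libraries than in all controls, 19.4% and 3.23%, against 10.6% and 11.0% of all genes tested. The groups overlapped for the other 24 members (77.4%), and 21.6% of all genes had no overlap in either direction. The 6 lower genes are the same 6 that had an unadjusted p under 0.05. The calls changed without control replicate 2, which lay nearest to the knockdown for CYP51A1, MSMO1 and ELOVL6. Without it, edgeR called 2 members lower, CYP51A1 (-0.50, edgeR adjusted p = 0.0275) and ELOVL6 (-0.45, 0.0308), 6.45% of the members against 1.78% of all genes. With a correction for transcript length and GC content, edgeR called 3 lower, ELOVL6 (-0.36, edgeR adjusted p = 0.0322), CYP51A1 (-0.40, 0.0336) and MSMO1 (-0.39, 0.0451), 9.68% of the members against 1.50% of all genes, and none higher, against 1.26%. That correction gave 224 higher and 265 lower calls over all genes, where the uncorrected fit gave 80 higher and 36 lower. RNAs without a poly(A) tail also differed between libraries: the mean log2(CPM + 1) of RN7SL1, RN7SL2, RN7SK, RPPH1 and RMRP was 3.81, 2.59 and 4.28 in the knockdown, against 2.47, 3.46 and 2.52 in controls. With that mean as a covariate no member was called, and CYP51A1 and ELOVL6 were at -0.26 and -0.31 (smallest edgeR adjusted p of a member 0.543).

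Within each group, deviations of the members correlated with transcript GC content, in directions that differed between libraries. The cause was not tested. Across the 31 genes, the Spearman correlation between a gene's deviation from its group's mean log2 level and the GC content of its longest transcript was -0.545, 0.383 and 0.422 in knockdown replicates 1 to 3. It was -0.834, 0.855 and -0.559 in control replicates 1 to 3, so that GC-rich members tended to be high in control replicate 2 and low in the other two controls. These are descriptions over genes of the same libraries, and genes are not independent replicates. Deviations were taken from the mean of the same 3 libraries, so the 3 correlations of a group are not separate observations. GC content ran from 34.2% for STARD4 to 65.3% for FASN, and all 15 genes above the median of 50.5% were higher in control replicate 2 than its group's mean log2 level. Of the remaining 16 genes, all but NSDHL were lower, with INSIG1, SCD, STARD4 and SQLE farthest below, at -0.47, -0.33, -0.28 and -0.28 on the log2 scale. Knockdown libraries varied less than controls for 24 of the 31 genes, with a median coefficient of variation of 7.31% in the knockdown and 12.8% in controls.

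**Figure D3:**
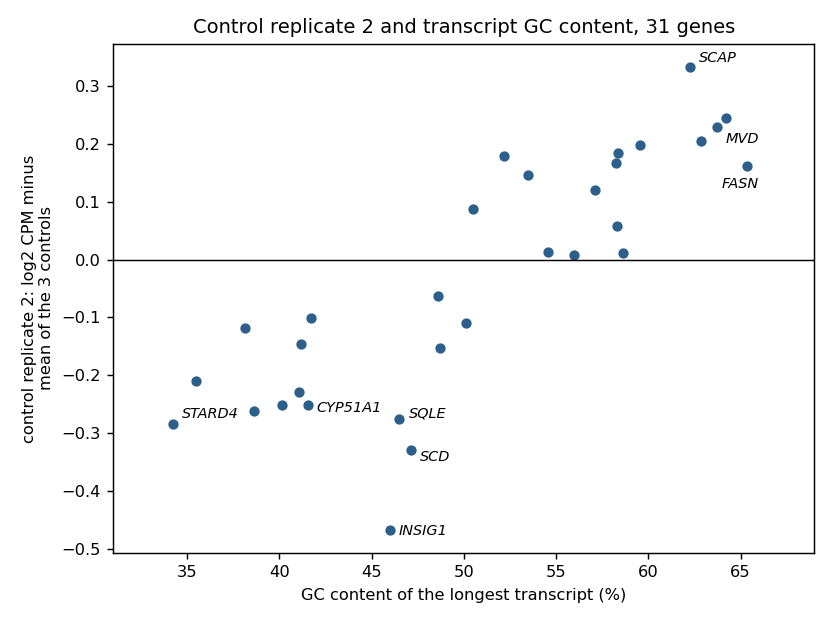
Log2 level in control replicate 2 minus the mean log2 level of the 3 controls, against the GC content of the longest annotated transcript, 1 point for each of the 31 genes. All 15 genes above the median GC content lie above 0 and 15 of the other 16 lie below.

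**Figure D4:**
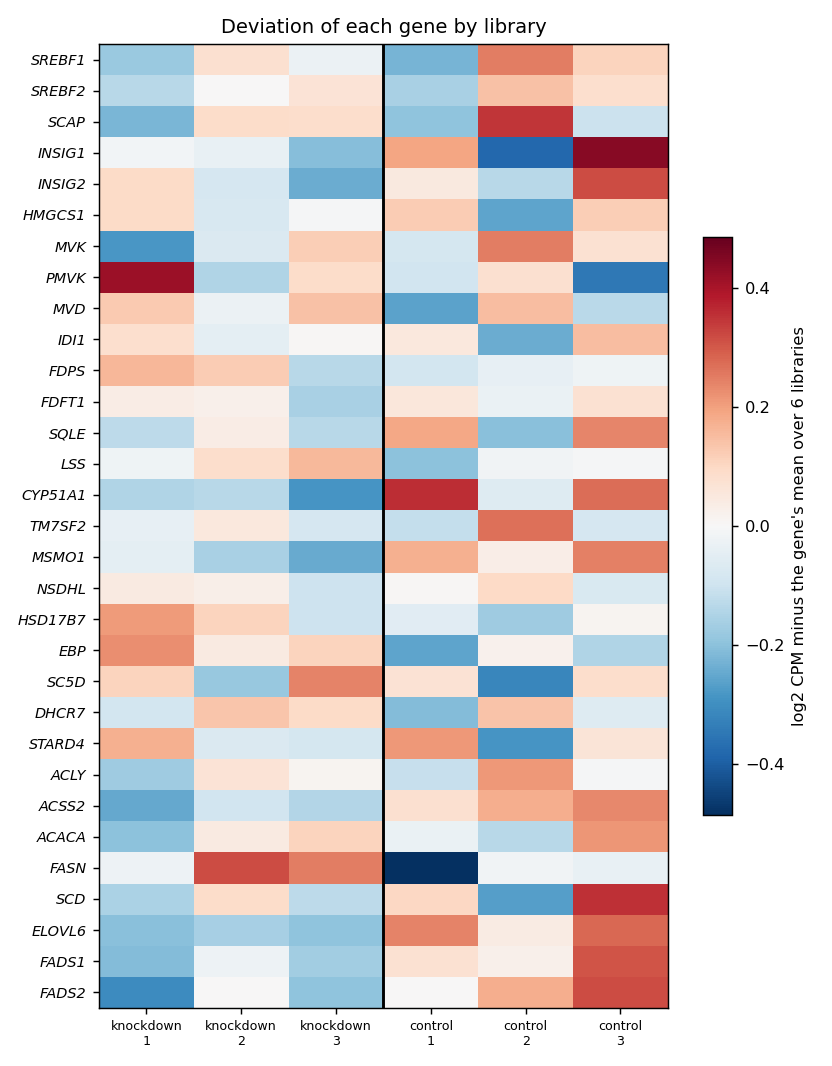
Deviation of each gene's log2 CPM from its mean over the 6 libraries, with knockdown replicates left of the line and control replicates right of it. INSIG1 is at -0.38 in control replicate 2 and 0.44 in control replicate 3, and among the 31 genes ELOVL6, FADS1, ACSS2, CYP51A1, MSMO1 and FADS2 alone are lower in every knockdown column than in every control column.

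Other genes of lipid metabolism, taken from 5 further lists, likewise gave no call by edgeR over all genes. Among 11 further genes of SREBP processing and turnover, 10 lay below 0 with a median log2 fold change of -0.13. Of these, 3 had an unadjusted p under 0.05, all lower, and 2 were called lower by DESeq2, rules that 7.43% and 2.17% of all genes met. TMEM97, an SREBP target that encodes a sterol-binding receptor of the endoplasmic reticulum, was at 30.3, 31.4 and 31.1 CPM in the knockdown, against 40.9, 39.9 and 40.8 CPM in controls. Both groups were tight and well separated (-0.39, SE 0.0990, edgeR adjusted p = 0.109, DESeq2 adjusted p = 0.0143). SEC23A, a coat protein gene of the vesicles that leave the endoplasmic reticulum, was at 89.2, 88.5 and 87.8 CPM, against 123, 97.3 and 120.4 CPM (-0.36, edgeR adjusted p = 0.157, DESeq2 adjusted p = 0.0395). Of 12 tested genes of other sterol and isoprenoid synthesis, 10 lay above 0, with a median of 0.06, and none had an unadjusted p under 0.05 or was called by DESeq2.

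Sterol uptake, storage and export genes, with the targets of the sterol-sensing LXR receptors, included 19 tested genes, and 4 of them, 2 in each direction, had an unadjusted p under 0.05, as did 15.6% of all genes. DESeq2 called 1 of them in each direction, against 2.75% of all genes higher and 2.17% lower. ABCA1, the LXR target that exports cholesterol, was at 24.5, 19.9 and 25.0 CPM in the knockdown, against 17.0, 15.3 and 17.3 CPM in controls. Every knockdown library was above every control (0.48, SE 0.133, edgeR adjusted p = 0.127, DESeq2 adjusted p = 0.0210). LIPA, the lysosomal acid lipase gene, was at 226, 253 and 216 CPM, against 320.2, 257 and 326 CPM (-0.38, SE 0.116, edgeR adjusted p = 0.160, DESeq2 adjusted p = 0.0349). SCARB1, a lipoprotein receptor gene, was at 63.7, 67.2 and 66.8 CPM in the knockdown, against 47.7, 60.7 and 54.9 CPM in controls, again without overlap (0.28, edgeR adjusted p = 0.264). ABCG1, another LXR target, had at most 0.0705 CPM and was not tested.

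Among 30 tested genes of other fatty acid and glycerolipid synthesis, 15 lay on each side of 0, and SCD5 had the smallest p. SCD5, a stearoyl-CoA desaturase paralog of SCD, was at 16.3, 18.0 and 17.3 CPM in the knockdown, against 27.2, 23.3 and 27.1 CPM in controls. Its groups were far apart relative to their spread (-0.59, SE 0.121), and its edgeR adjusted p of 0.0582 was the nearest to a call in all the lists, with a DESeq2 adjusted p of 0.000933. At an unadjusted p under 0.05 this list had 2 higher and 1 lower of its 30 tested genes, where 8.15% and 7.43% of all genes were. ELOVL4, an elongase of very long chains, was above every control in every knockdown library, at 52.4, 43.0 and 47.9 CPM against 41.1, 33.9 and 41.3 CPM (0.30, edgeR adjusted p = 0.264). Of 18 fatty acid oxidation genes, 7 lay above 0 and 11 below, with a median log2 fold change of -0.06, and DESeq2 called none.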

How the data were processed

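Polyadenylated RNA was sequenced from 3 knockdown and 3 control libraries of U251 cells with a strand-marking kit, per the labels' protocols. The authors deposited whole-number counts per Ensembl gene. The submitters' processing notes name HISAT2 2.0.4, cutadapt 1.9 and StringTie 1.3.4d beside edgeR and DESeq2, with build GRCh38. Not given in the sources used here are the counting tool, its strand setting and its treatment of reads with several hits. Exons of 14 members overlap another gene in GENCODE release 29 and 5 have named pseudogenes (FDPS, CYP51A1, HSD17B7, SCD and FADS2), so their counts are less certain.

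A reference name table gave symbols for 60588 identifiers. Counts were analysed in R 4.3.3 with edgeR 4.0.16 (TMM scaling, filterByExpr with a minimum of 10 counts, group as the only term, two-sided), which tested 17723 genes. SE is the log2 fold change over the square root of F. DESeq2 1.42.0 and limma 3.58.1 were alternatives, as were other scalings and filters, the replicate number as a block, each library left out, a non-polyadenylated RNA covariate, and a loess correction (span 0.3) for GC content and transcript length. The procedure was tested on simulated data. At this depth 3 counts are 0.0463 to 0.0514 CPM, a limit for counting error only. All pairs of libraries differed by more than counting error (the chi-square over its degrees of freedom was at least 23.1). The genes named by rule are the 31 members, TEAD3 and up to 3 genes with the smallest p of each further list. Cell type markers, the non-polyadenylated RNAs, FEN1 (which overlaps FADS2) and ABCG1 (not tested) are named besides, the last pair chosen after their values were seen. Members and lists were chosen with earlier results of these data known.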

Additional observations from a re-analysis of the deposited data

How the results depend on the processing

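In 15 alternatives, 415 of the fold changes kept their direction and side of the threshold, 7 became called and 43 changed sign, and none of the genes outside CYP51A1, MSMO1 and ELOVL6 was called in any of them. The number of members called lower was 0 except 3 with the length and GC correction, 2 by DESeq2 and 2 without control replicate 2, so that leaving out each library gave 0 to 2, and 0 were called higher throughout. Over all genes the calls were 80 higher and 36 lower, and they were 26 and 5 with no filter on low counts, 224 and 265 with the length and GC correction, 17 and 5 with the non-polyadenylated RNA covariate and 488 and 384 by DESeq2. Leaving out each library gave 15 to 259 higher and 5 to 330 lower, the largest without control replicate 2. With the replicate block there were 47 higher and 16 lower, and no member was called. The pairing rests on the number alone, since the labels do not say that it marks a shared batch. Deviations of same-numbered libraries correlated at 0.0044, -0.0093 and 0.0092. Those of differently numbered libraries correlated between -0.0217 and 0.0172, so these values cannot tell whether the numbers mark a batch. HMGCS1 and STARD4 were at 0.00097 and 0.00046 with DESeq2 size factors, 0.0022 and 0.0015 with the stricter filter, 0.0079 and 0.0083 with the replicate block, 0.00091 and 0.00044 by DESeq2 and 0.0055 and 0.0052 by limma-voom. With the length and GC correction SREBF2 was at 0.0052, IDI1 at -0.0022 and ACLY at 0.0015. With the non-polyadenylated RNA covariate INSIG1 was at 0.012, HMGCS1 at 0.055, FDFT1 at 0.00073, STARD4 at 0.086, ACACA at 0.019 and SCD at 0.048. Leaving out each library gave ranges of -0.22 to 0.0073 for SREBF1, -0.13 to 0.011 for SREBF2, -0.15 to 0.14 for SCAP, -0.12 to 0.060 for HMGCS1, -0.088 to 0.10 for IDI1, -0.13 to 0.073 for TM7SF2, -0.060 to 0.026 for NSDHL, -0.014 to 0.22 for SC5D, -0.13 to 0.11 for STARD4, -0.13 to 0.029 for ACLY, -0.11 to 0.072 for ACACA and -0.29 to 0.013 for SCD. The causes were not tested. Every member had at least 503 counts in each library.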
